A study of Homo sapiens with 9 samples.

Results

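The pentose phosphate pathway and its partners in NADPH supply were represented by 8 genes: PGD, PGLS, TALDO1, TKT, RPIA, IDH1, NADK and NNT. These genes were chosen by name from a list of 9, by matching their Entrez gene numbers to the rows of the count table, and they were 8 of the 11746 features with a gene number. All 8 were among the 11064 features that had enough reads to be tested. The expression of ME1, the cytosolic malic enzyme and the remaining gene of the list, was not analysed here.

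The pentose phosphate pathway draws glucose 6-phosphate away from glycolysis. Its oxidative branch reduces NADP+ to NADPH and yields ribulose 5-phosphate, and its reversible non-oxidative branch converts pentose phosphates to and from glycolytic sugars. In liver cells NADPH feeds lipid and sterol synthesis, cytochrome P450 reactions and the reduction of glutathione and thioredoxin. KEAP1 is the adaptor that directs the transcription factor NRF2 (NFE2L2) to degradation, and genes of NADPH supply are among the known NRF2 targets.

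RNA was measured in HepG2, a human liver cancer line, in 3 groups of 3 libraries each. Cells of the sgCtrl group (treatment label sgAAVS168) carried a guide RNA against AAVS1, and cells of the sgKeap1-1 and sgKeap1-2 groups each carried a different guide RNA against KEAP1. All groups had received the lentiviral Cas9 vector LentiCRISPRv2 with their guide, had been selected with puromycin, and gave RNA 48 h after seeding. Neither the labels nor the methods say whether the lines were clones or selected populations, or whether replicates came from separate cultures, so p-values measure only the spread between these libraries.

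Libraries were made with the QuantSeq kit, which yields reads near the 3′ end of each transcript, and held 3011644 to 4725840 reads on numbered genes. Expression is given as CPM, the reads of a gene relative to the TMM-scaled size of its library, and CPM from 3′ reads does not depend on transcript length. A gene was called changed at an adjusted p under 0.05 in the quasi-likelihood test of edgeR. The p-values were adjusted by the Benjamini-Hochberg method over all 11064 features, and the fit held no term for the replicate number. In a principal component analysis the first component separated the sgCtrl libraries from the others, and the second set the 3 libraries numbered 2 (-28.25 to -17.59) apart from the others (-1.03 or above), with replicate 3 of sgKeap1-2 at the far end (38.88). KEAP1 itself was read at 63.3, 89.2 and 85.3 CPM in sgCtrl libraries, at 64.1, 62.5 and 53.4 CPM with sgKeap1-1 and at 81.9, 85.6 and 73.9 CPM with sgKeap1-2, and was not called with either guide (adjusted p = 0.211 and 0.952, edgeR). A 3′ read can lie outside the edited site, so the KEAP1 transcript level is no check of the knockout. The study examined HepG2 cells with these guides by immunoblot and reported markedly more NRF2 after loss of KEAP1. All 10 hepatocyte markers examined, among them ALB, APOA1, APOB, TTR, SERPINA1, AFP, TF, FGB and HNF4A, were read in these cells.

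With both KEAP1 guides, PGD, TALDO1 and TKT rose, while IDH1, PGLS, RPIA, NADK and NNT were not called. TALDO1 had the largest fold change of the 8 genes with each guide, at 2.36-fold (95% interval 1.96 to 2.84) with sgKeap1-1 and 3.14-fold (2.61 to 3.79) with sgKeap1-2. Thus 3 of 8 genes were called higher and 0 lower with each guide. Of all tested features, 4.20% were called with sgKeap1-1 (2.80% higher and 1.40% lower) and 10.8% with sgKeap1-2 (5.96% higher and 4.85% lower), while 2.77% were higher and 1.37% lower with both guides. At an unadjusted p under 0.05 there were 3 of 8 genes with sgKeap1-1 and 5 of 8 with sgKeap1-2 by edgeR, beside 15.0% and 23.3% of all features. The median log2 fold change over the 8 genes was 0.22 with sgKeap1-1 and 0.29 with sgKeap1-2, beside medians of -0.00 and -0.01 over all features. Without replicate 3 of sgKeap1-2 the same 3 genes were called, with log2 fold changes of 1.27 for PGD, 1.57 for TALDO1 and 0.77 for TKT. Both comparisons used the same 3 sgCtrl libraries and are not independent of each other. The 8 genes were chosen with earlier results of these data known, so their counts beside all features are a description and no test of enrichment.

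**Figure D1:**
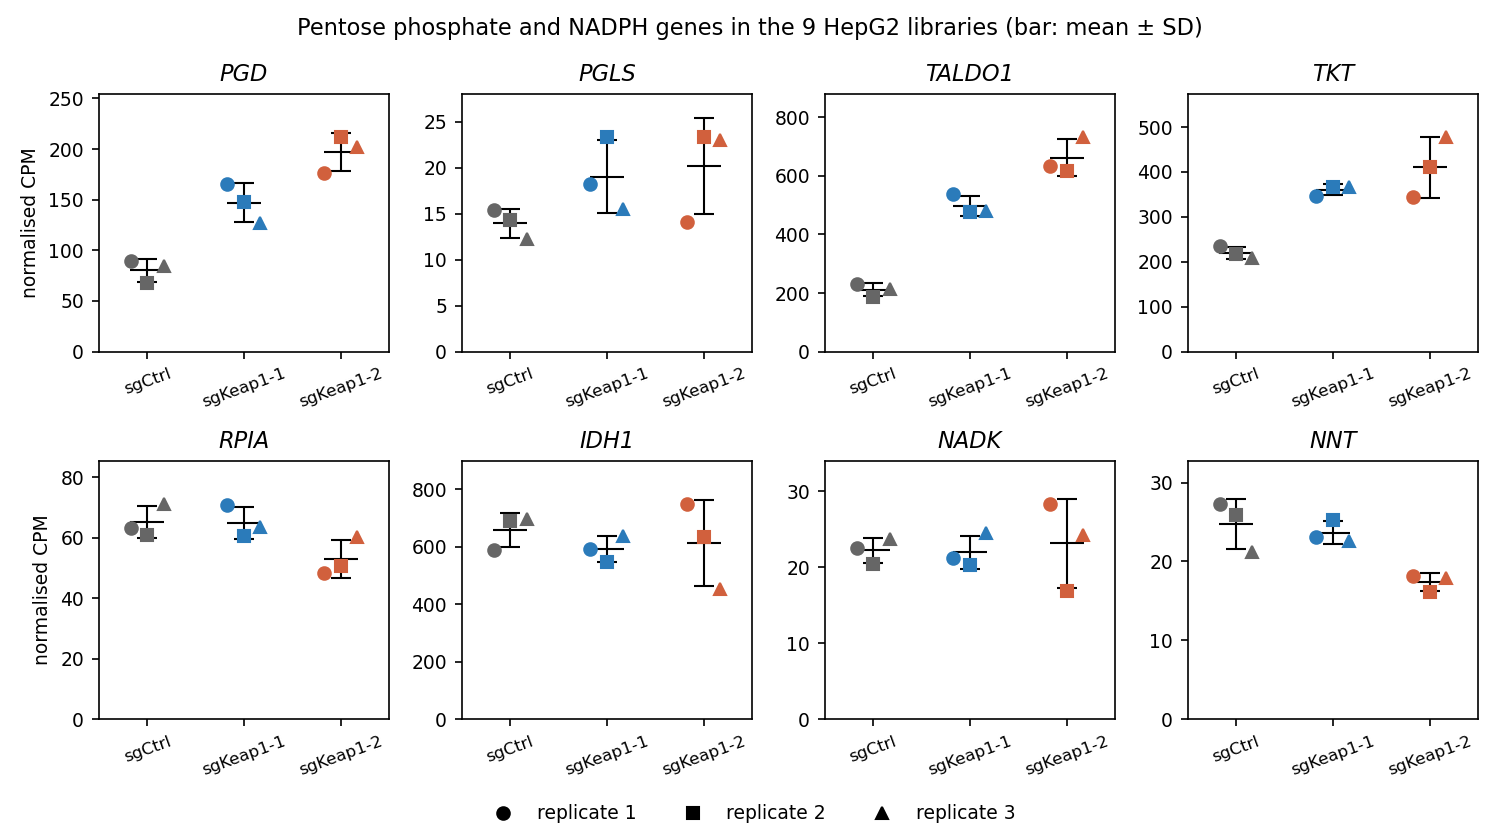
Normalised CPM (vertical axes, from 0) of each gene in the 3 libraries of sgCtrl, sgKeap1-1 and sgKeap1-2 cells. Symbols are libraries, and bars give the mean ± SD. PGD, TALDO1 and TKT show no overlap between sgCtrl and either KEAP1 guide, whereas the groups overlap for IDH1 and NADK.

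In the oxidative branch, PGD encodes 6-phosphogluconate dehydrogenase, which makes the second NADPH of the branch. PGD (Entrez gene 5226, chromosome 1) was read at 89.3, 67.7 and 84.5 CPM in sgCtrl libraries, at 165, 148 and 127 CPM with sgKeap1-1 and at 176, 212 and 203 CPM with sgKeap1-2. Every KEAP1-guide library thus lay above every sgCtrl library, and the libraries of the 2 KEAP1 guides did not overlap each other either. The log2 fold change was 0.86 (SE 0.15, edgeR adjusted p = 0.00266) with sgKeap1-1 and 1.29 (SE 0.15, adjusted p = 4.83e-05) with sgKeap1-2.

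PGLS (25796, chromosome 19) encodes 6-phosphogluconolactonase, which opens the lactone ahead of the PGD step. It was the least abundant of the 8 genes in sgCtrl cells, at 15.4, 14.3 and 12.3 CPM, and was read at 18.3, 23.3 and 15.5 CPM with sgKeap1-1 and at 14.2, 23.4 and 23.02 CPM with sgKeap1-2. The sgKeap1-1 libraries all lay above those of sgCtrl, replicate 3 only just, but replicate 1 of sgKeap1-2 lay among those of sgCtrl. Its log2 fold change was 0.45 (95% interval -0.07 to 0.97, edgeR adjusted p = 0.439) with sgKeap1-1 and 0.54 (0.02 to 1.06, adjusted p = 0.197) with sgKeap1-2, and neither was called. The sgKeap1-1 interval held the value fitted for PGD, and the sgKeap1-2 interval ended below it.

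In the non-oxidative branch, TALDO1 encodes transaldolase, which moves a 3-carbon unit between sugar phosphates. TALDO1 (6888, chromosome 11) was read at 231, 186 and 215 CPM in sgCtrl libraries, at 537, 476 and 480 CPM with sgKeap1-1 and at 634, 618 and 735 CPM with sgKeap1-2. The 3 groups did not overlap, with sgCtrl lowest and sgKeap1-2 highest. The log2 fold change was 1.24 (SE 0.12, edgeR adjusted p = 3.45e-05) with sgKeap1-1 and 1.65 (SE 0.13, adjusted p = 1.52e-06) with sgKeap1-2.

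TKT encodes transketolase, the thiamine-dependent enzyme that moves a 2-carbon unit and works beside transaldolase. TKT (7086, chromosome 3) was read at 235, 218 and 208 CPM in sgCtrl libraries, at 346, 367 and 367 CPM with sgKeap1-1 and at 344, 410 and 479 CPM with sgKeap1-2. All KEAP1-guide libraries were above all sgCtrl libraries, while the 2 KEAP1 guides overlapped. The log2 fold change was 0.71 (SE 0.13, edgeR adjusted p = 0.00478) with sgKeap1-1 and 0.90 (SE 0.13, adjusted p = 0.000389) with sgKeap1-2.

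RPIA (22934, chromosome 2) encodes ribose 5-phosphate isomerase, which converts ribulose 5-phosphate to the ribose 5-phosphate of nucleotides. It was read at 63.3, 60.9 and 71.1 CPM in sgCtrl libraries, at 70.9, 60.6 and 63.4 CPM with sgKeap1-1 and at 48.3, 50.5 and 60.1 CPM with sgKeap1-2. The first 2 groups covered nearly the same range, whereas the sgKeap1-2 libraries all lay lower, replicate 3 only just. Neither difference was called, with log2 fold changes of -0.01 (95% interval -0.31 to 0.30, edgeR adjusted p = 0.993) and -0.30 (-0.60 to 0.01, adjusted p = 0.226). RPIA therefore did not rise with TALDO1 and TKT, and the ratio of TKT to RPIA CPM was 3.41 ± 0.42 (SD, n = 3) in sgCtrl, 5.58 ± 0.62 with sgKeap1-1 and 7.74 ± 0.55 with sgKeap1-2.

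Outside the pathway, IDH1 encodes the cytosolic and peroxisomal NADP-dependent isocitrate dehydrogenase. IDH1 (3417, chromosome 2) was read at 590, 690 and 695 CPM in sgCtrl libraries, at 591, 546 and 638 CPM with sgKeap1-1 and at 748, 633 and 452 CPM with sgKeap1-2. The sgKeap1-2 libraries spanned the whole range seen, from the lowest to the highest of the 9 values. The log2 fold changes of -0.15 (95% interval -0.50 to 0.19, edgeR adjusted p = 0.76) and -0.11 (-0.45 to 0.23, adjusted p = 0.757) were not called, and their intervals did not reach the changes fitted for PGD, TALDO1 or TKT.

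NADK (65220, chromosome 1) encodes the cytosolic NAD kinase, which makes NADP+ from NAD+. It was read at 22.5, 20.4 and 23.7 CPM in sgCtrl libraries, at 21.2, 20.3 and 24.5 CPM with sgKeap1-1 and at 28.3, 16.8 and 24.2 CPM with sgKeap1-2. The groups overlapped throughout, and the sgKeap1-2 libraries were the most scattered (SD 5.83 CPM). The log2 fold changes were -0.02 (95% interval -0.47 to 0.43, edgeR adjusted p = 0.984) and 0.05 (-0.40 to 0.50, adjusted p = 0.926).

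NNT (23530, chromosome 5) encodes the transhydrogenase of the inner mitochondrial membrane, which makes mitochondrial NADPH from NADH. It was read at 27.3, 25.9 and 21.2 CPM in sgCtrl libraries, at 23.1, 25.3 and 22.6 CPM with sgKeap1-1 and at 18.2, 16.1 and 17.9 CPM with sgKeap1-2. The sgKeap1-1 values lay within those of sgCtrl, and the sgKeap1-2 values all lay lower than both. The log2 fold change was -0.06 (95% interval -0.44 to 0.32, edgeR adjusted p = 0.931) with sgKeap1-1 and -0.51 (-0.90 to -0.12, adjusted p = 0.0956) with sgKeap1-2, neither of which was called.

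Counted by overlap alone, 4 of 8 genes (PGD, PGLS, TALDO1 and TKT) had all sgKeap1-1 libraries above all sgCtrl libraries, as had 11.5% of all features, and none lay wholly below, as did 10.3% of features. With sgKeap1-2, 3 of 8 genes (PGD, TALDO1 and TKT) lay wholly above sgCtrl, beside 14.3% of all features. Wholly below lay 2 of 8 (NNT, and RPIA only just), beside 13.7%. Reads of these genes can be shared with copies or antisense transcripts, since RefSeq names pseudogenes of TALDO1, PGD, RPIA and IDH1 and antisense genes at IDH1 and NNT, and the strand setting of the counting is not given in the sources used here.

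**Figure D2:**
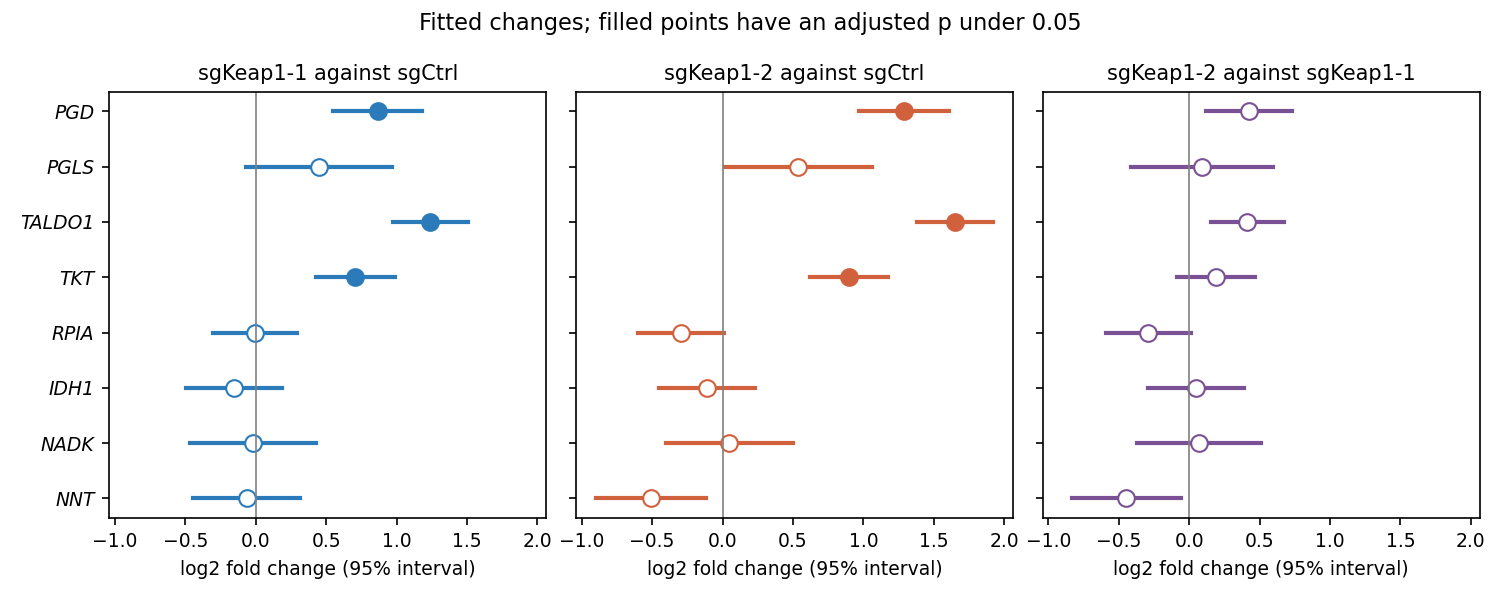
Fitted log2 fold change (points) with its 95% interval (lines) of the 8 genes for each KEAP1 guide against sgCtrl and for sgKeap1-2 against sgKeap1-1. Filled points have an adjusted p under 0.05: PGD, TALDO1 and TKT in the first 2 panels and none in the third.

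The 2 KEAP1 guides were then compared with each other. None of the 8 genes was called (0 of 8, edgeR), where 0.0181% of all features were called. At an unadjusted p under 0.05 there were 3 of 8 genes, beside 5.08% of all features, and limma-voom and DESeq2 also called 0 of 8. Libraries of sgKeap1-2 were higher than sgKeap1-1 libraries without overlap for PGD and TALDO1 (2 of 8 genes, beside 5.50% of all features). They were lower without overlap for NNT and, only just, for RPIA (2 of 8, beside 4.93%). The log2 difference of sgKeap1-2 minus sgKeap1-1 was 0.42 for PGD (95% interval 0.12 to 0.73, edgeR adjusted p = 0.9) and 0.41 for TALDO1 (0.15 to 0.68, adjusted p = 0.811). For TKT it was 0.19 (-0.08 to 0.47, edgeR adjusted p = 0.986), and for NNT it was -0.45 (-0.83 to -0.06, adjusted p = 0.916). A larger rise with sgKeap1-2 than with sgKeap1-1 was therefore not established for any of the 8 genes.

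The rise of 3 genes changed the order of levels within the group. In sgCtrl cells IDH1 was highest, followed by TKT and TALDO1, which overlapped, then by PGD and RPIA, which overlapped, then by NNT and NADK, which overlapped, and PGLS was lowest. With sgKeap1-1 the 5 highest genes were IDH1, TALDO1, TKT, PGD and RPIA, in that order and without overlap between neighbours. With sgKeap1-2, TALDO1 (663 ± 62.9 CPM, SD, n = 3) overlapped IDH1 (611 ± 149 CPM), and IDH1 overlapped TKT (411 ± 67.7 CPM). The ratio of TALDO1 to IDH1 CPM was 0.323 ± 0.062 (SD, n = 3) in sgCtrl, 0.844 ± 0.081 with sgKeap1-1 and 1.15 ± 0.42 with sgKeap1-2. The ratio of TALDO1 to TKT CPM, 0.956 ± 0.091 in sgCtrl, was 1.38 ± 0.14 with sgKeap1-1 and 1.63 ± 0.19 with sgKeap1-2, without overlap between sgCtrl and either guide.

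Summed over the 8 genes, reads rose from 1296 ± 31.1 CPM (SD, n = 3) in sgCtrl to 1726 ± 54.4 CPM with sgKeap1-1 and 1995 ± 15.2 CPM with sgKeap1-2, which was 1.33-fold and 1.54-fold of sgCtrl. The sums of the sgKeap1-2 libraries lay within 1981 to 2011 CPM although IDH1 and TKT varied widely among them. Summed CPM of the 10 hepatocyte markers moved the other way, from 30317 to 37797 in sgCtrl libraries to 17414 to 21918 with sgKeap1-1 and 14307 to 15997 with sgKeap1-2. Of those markers, 5 were called lower and 1 (TTR) higher with sgKeap1-1, and 6 lower and 1 higher with sgKeap1-2. Of all features, 1.40% were called lower and 2.80% higher with sgKeap1-1, and 4.85% and 5.96% with sgKeap1-2. The part of these markers in the result was not tested. In bulk RNA fewer cells of a kind and less RNA per cell cannot be told apart. Of 8 blood, vessel and fibroblast markers, 3 (CD14, LYZ and ACTA2) had enough reads to be tested. Of these, 0 were called with either guide by edgeR, limma-voom or DESeq2. At an unadjusted p under 0.05 edgeR gave 1 of 3 with sgKeap1-1 and 0 with sgKeap1-2, beside 15.0% and 23.3% of all features.

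**Figure D3:**
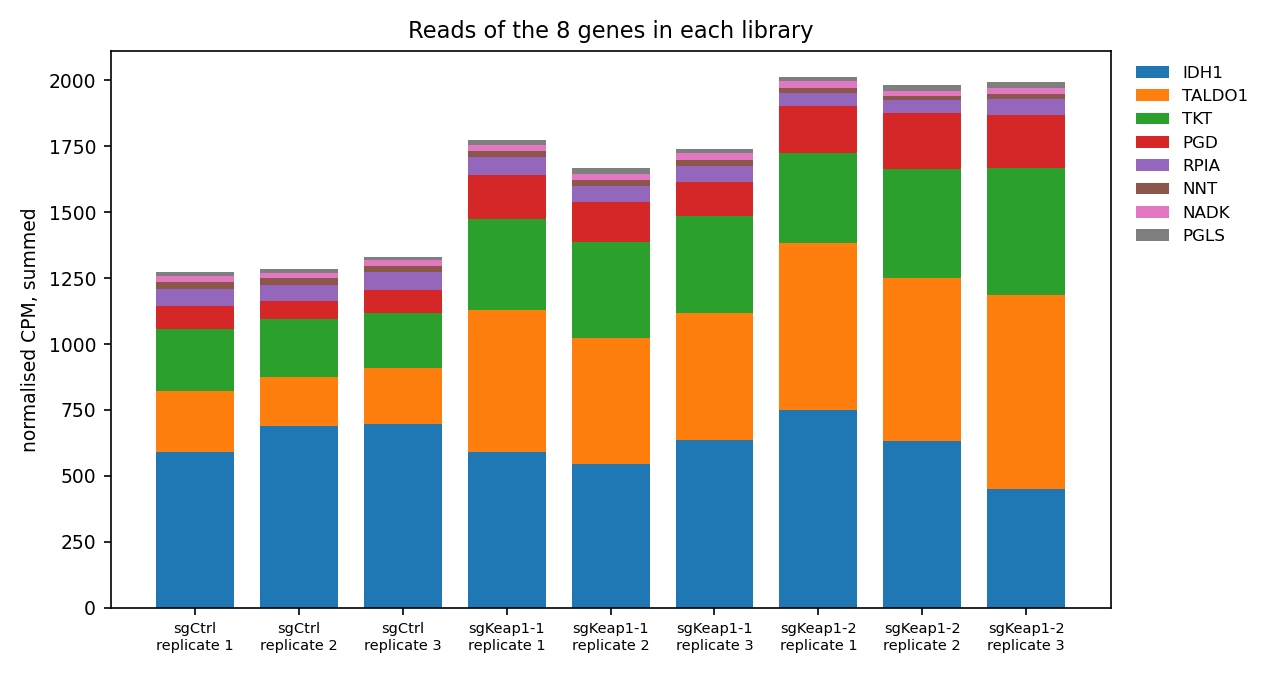
Summed normalised CPM (vertical axis, from 0) of the 8 genes in each of the 9 libraries, stacked by gene. The sgCtrl libraries sum to 1273 to 1332 CPM, those of sgKeap1-1 to 1666 to 1773 and those of sgKeap1-2 to 1981 to 2011, with taller TALDO1, TKT and PGD segments under both KEAP1 guides.

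The promoter sequences of the 3 called genes and of IDH1, which was abundant but not called, are shown for comparison with the binding motif of NRF2, the factor that KEAP1 controls. The sequences come from RefSeq (GRCh38.p14), run 5′ to 3′ on the strand of the gene from 250 bases before its start to 50 bases after, and have capitals where the core of the antioxidant response element, TGACNNNGC, was found on either strand. The window of PGD (chr1:10398814-10399113, plus strand), that of TALDO1 (chr11:747214-747513, plus strand), that of TKT (chr3:53255973-53256272, minus strand) and that of IDH1 (chr2:208255022-208255321, minus strand) read:
PGD: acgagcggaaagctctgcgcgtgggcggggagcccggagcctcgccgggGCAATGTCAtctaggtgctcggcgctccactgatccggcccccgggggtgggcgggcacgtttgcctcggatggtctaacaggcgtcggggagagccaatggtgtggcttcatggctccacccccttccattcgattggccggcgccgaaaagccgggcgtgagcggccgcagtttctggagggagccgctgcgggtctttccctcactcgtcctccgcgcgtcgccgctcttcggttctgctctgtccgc
TALDO1: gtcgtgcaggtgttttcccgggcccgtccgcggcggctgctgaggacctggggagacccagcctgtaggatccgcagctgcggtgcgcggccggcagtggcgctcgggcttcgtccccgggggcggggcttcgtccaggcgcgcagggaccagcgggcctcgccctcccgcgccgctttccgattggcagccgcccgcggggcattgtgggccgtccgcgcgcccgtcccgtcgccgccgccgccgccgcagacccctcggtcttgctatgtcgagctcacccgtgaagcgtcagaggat
TKT: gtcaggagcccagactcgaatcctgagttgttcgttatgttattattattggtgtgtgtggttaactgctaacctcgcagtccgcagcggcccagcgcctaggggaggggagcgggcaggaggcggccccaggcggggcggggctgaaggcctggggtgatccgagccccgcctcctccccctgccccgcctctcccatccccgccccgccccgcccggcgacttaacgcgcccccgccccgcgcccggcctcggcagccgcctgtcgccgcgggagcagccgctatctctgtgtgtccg
IDH1: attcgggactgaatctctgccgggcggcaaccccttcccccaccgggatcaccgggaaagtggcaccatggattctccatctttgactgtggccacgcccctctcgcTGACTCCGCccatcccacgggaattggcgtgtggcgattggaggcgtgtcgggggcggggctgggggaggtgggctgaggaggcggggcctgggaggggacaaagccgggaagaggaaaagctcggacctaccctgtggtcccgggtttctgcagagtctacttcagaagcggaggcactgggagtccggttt

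The core motif was present in 13.35% of the 35114 RefSeq promoter windows of the same 300 bases. PGD held 1 match, TGACATTGC on the minus strand, at 201 bases before the start, and IDH1 held 1 match, TGACTCCGC on the plus strand, at 143 bases before the start, where plus is the strand of the gene. The windows of TALDO1 and TKT held 0 matches, as did those of PGLS, RPIA, NADK and NNT, so matches were found for 1 of 3 called genes and 1 of 5 others. ME1, whose expression was not analysed, held 2 matches. They were TGACTCAGC on the plus strand, at 137 bases before the start, and TGACGGTGC on the minus strand, after the start. A match is a description of letters in these windows, and a window without one says nothing of sites elsewhere.

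The wider pathway was described with 6 lists of 62 other genes, of which 53 had enough reads. With sgKeap1-1, 8 of 53 were called higher and 4 lower, beside 2.80% and 1.40% of all features. With sgKeap1-2, 11 of 53 were called higher and 8 lower, beside 5.96% and 4.85% of all features. These 12 and 19 calls, and those given for each list, come from the fit without a term for the replicate number. With that term 21 and 24 of the 53 were called, beside 977 and 1956 of all 11064 features. The limma-voom and DESeq2 fits held no such term either. All 6 lists were chosen with earlier results of these data known, so their counts are a description and no test of enrichment. The shares of all features given here apply also to the calls of each list below. Between the 2 KEAP1 guides, 0 of 53 were called by edgeR, limma-voom or DESeq2, and 8 of 53 had an unadjusted p under 0.05 by edgeR, beside 5.08% of all features.

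The other pentose phosphate and ribose genes held no call. Of 9 tested (among them RPE, the ribulose phosphate epimerase, H6PD, the dehydrogenase of the endoplasmic reticulum, and the ribose phosphate kinases PRPS1 and PRPS2), 0 were called with either guide by edgeR, limma-voom or DESeq2. At an unadjusted p under 0.05 edgeR gave 1 of 9 with sgKeap1-1 and 2 of 9 with sgKeap1-2, beside 15.0% and 23.3% of all features. RPE, which supplies the pentose phosphate that TKT uses, had mean levels of 43.9 CPM in sgCtrl, 50.8 CPM with sgKeap1-1 and 41.8 CPM with sgKeap1-2.

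Among 8 genes listed as other NADP-linked dehydrogenases, a list not limited to enzymes that use NADP+, 1 was called higher and 1 lower with each guide. ALDH1L1, a folate enzyme that makes NADPH in the cytosol, rose from 18.3 ± 0.63 CPM (SD, n = 3) in sgCtrl to 45.5 ± 9.92 CPM with sgKeap1-1 and 69.0 ± 17.4 CPM with sgKeap1-2 (log2 fold change 1.32 and 1.92, edgeR adjusted p = 0.00206 and 4.1e-05). GLUD1, the mitochondrial glutamate dehydrogenase, fell from 310 ± 17.8 CPM to 182 ± 15.0 CPM and 152 ± 26.5 CPM (log2 fold change -0.77 and -1.03, edgeR adjusted p = 0.004 and 0.000228). In the NAD and NADP synthesis list, 0 of 7 were called with sgKeap1-1 by edgeR, limma-voom or DESeq2. At an unadjusted p under 0.05 edgeR gave 2 with sgKeap1-1, beside 15.0% of all features. With sgKeap1-2, 1 of 7 was called. That gene, named after its value was seen, was NADK2, the mitochondrial NAD kinase, at 63.7 CPM in sgCtrl and 32.5 CPM with sgKeap1-2 (log2 fold change -0.96, edgeR adjusted p = 0.00437). With sgKeap1-1 its log2 fold change was -0.62 (edgeR adjusted p = 0.0873), and the difference between guides was not called.

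The enzymes that use NADPH held most of the calls, in both directions. Of 15 tested, 5 were called higher and 3 lower with sgKeap1-1, and 6 higher and 5 lower with sgKeap1-2. Of those called higher, 4 are described here. PTGR1, which reduces prostaglandin and alkenal double bonds, was at 17.8, 19.7 and 21.8 CPM in sgCtrl libraries, at 694, 769 and 544 CPM with sgKeap1-1 and at 1038, 1102 and 777 CPM with sgKeap1-2, with log2 fold changes of 5.08 and 5.62 (edgeR adjusted p = 2.36e-09 and 7.61e-10). TXNRD1, the cytosolic thioredoxin reductase, rose from 87.3 ± 29.4 CPM (SD, n = 3) to 381 ± 68.5 CPM and 440 ± 141 CPM. NQO1, a quinone reductase, rose from 521 ± 15.5 CPM to 1356 ± 88.4 CPM and 1738 ± 179 CPM. GSR, the glutathione reductase, rose from 193 ± 15.1 CPM to 349 ± 28.2 CPM and 423 ± 82.9 CPM. Each of these 4 was called with both guides.

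Of those that fell, SQLE, the squalene epoxidase of sterol synthesis, was lower with both guides, at 230 CPM in sgCtrl, 153 CPM with sgKeap1-1 and 122 CPM with sgKeap1-2 (log2 fold change -0.59 and -0.91, edgeR adjusted p = 0.0124 and 0.000236). SQLE and CBR1, a carbonyl reductase that was higher with both guides (log2 fold change 0.80 and 1.04), lie outside the limit of 5 genes a list and were named after their values were seen.

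Of 8 glycolytic enzymes that share sugar phosphates with the pathway, 2 (HK1 and PFKP) were called higher with sgKeap1-1 and 4 (also ALDOA and GPI, named after their values were seen) with sgKeap1-2. HK1, a hexokinase, had 1, 4 and 4 reads in sgCtrl libraries, 18, 32 and 17 with sgKeap1-1 and 28, 35 and 27 with sgKeap1-2. PFKP, the platelet-type phosphofructokinase, had 2, 5 and 11 reads in sgCtrl libraries, 51, 70 and 63 with sgKeap1-1 and 46, 84 and 75 with sgKeap1-2. Both passed the filter on low counts through the KEAP1-guide libraries, where they were high, so their calls and the counts that include them are given as a description, and the size of the difference is poorly set. Of the 6 KEAP1-NRF2 regulators, 0 were called with sgKeap1-1 by edgeR, limma-voom or DESeq2. At an unadjusted p under 0.05 edgeR gave 2 with sgKeap1-1, beside 15.0% of all features. With sgKeap1-2, 1 was called, NFE2L2, which encodes NRF2. NFE2L2 was at 256 CPM in sgCtrl and 182 CPM with sgKeap1-2 (log2 fold change -0.49, edgeR adjusted p = 0.0347). It was named after its value was seen, and its log2 fold change with sgKeap1-1 was -0.40 (adjusted p = 0.146).

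**Figure D4:**
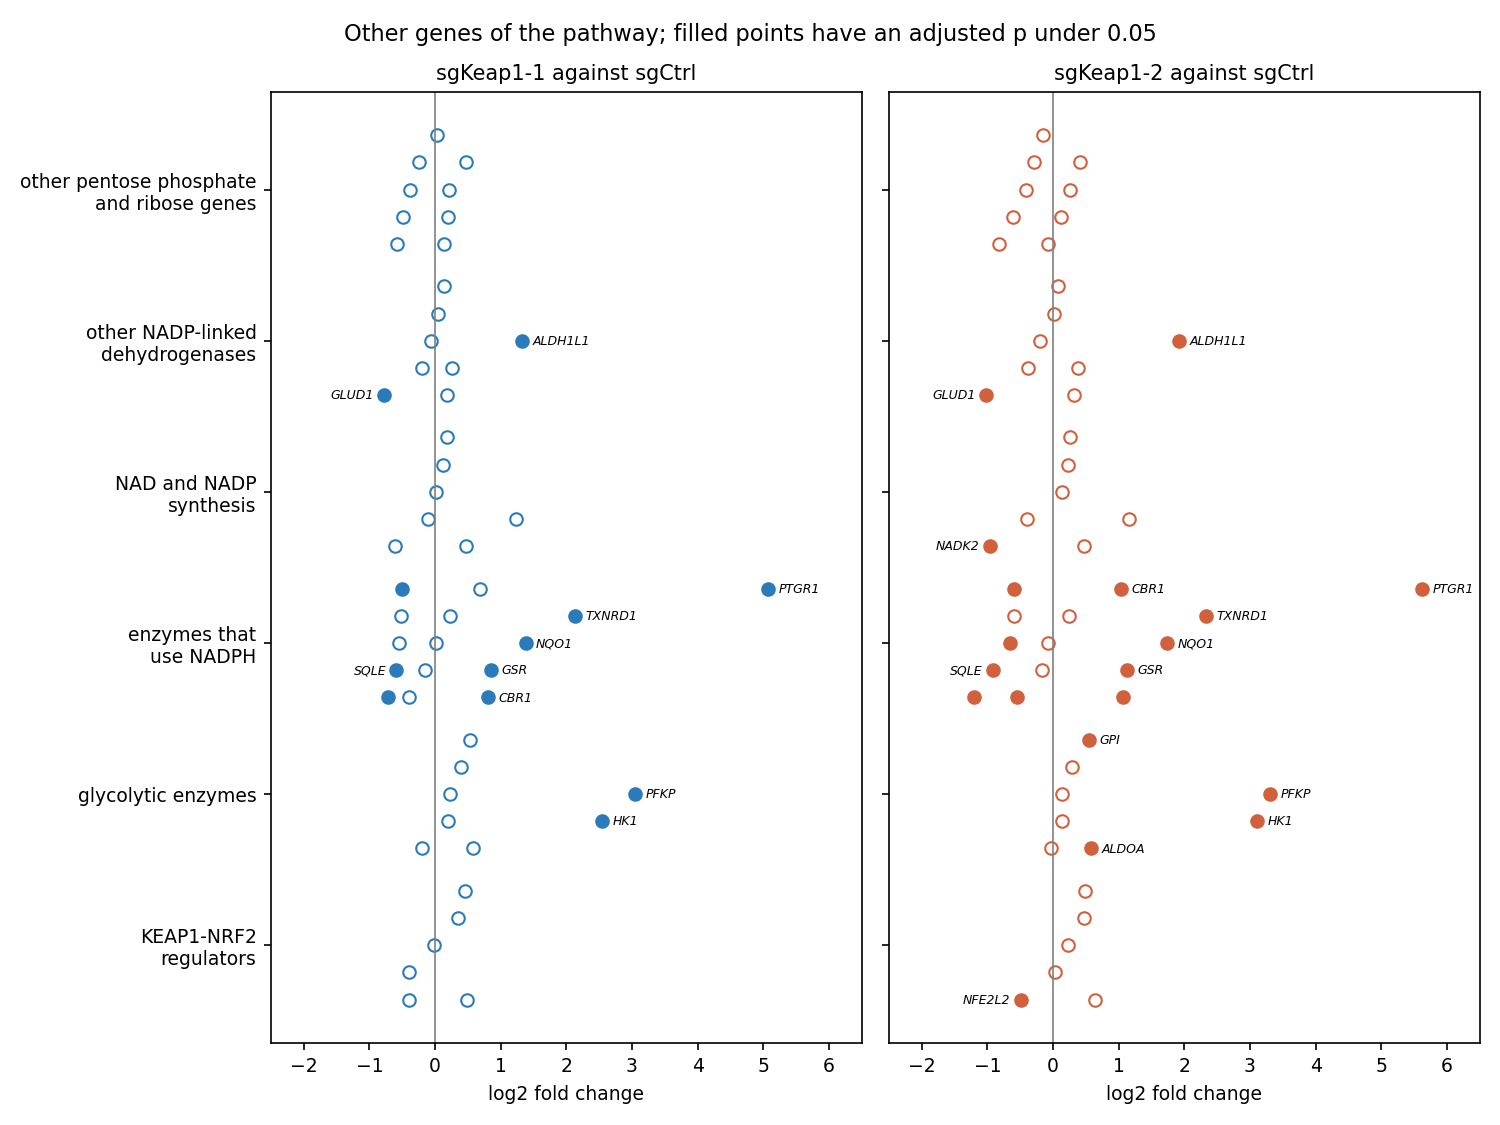
Log2 fold change of the 53 other genes by list, for sgKeap1-1 (left) and sgKeap1-2 (right) against sgCtrl. Filled points have an adjusted p under 0.05, those of genes described in the text are named, and the list of other pentose phosphate and ribose genes has none, while PTGR1 reaches 5.08 and 5.62.

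Across the 9 libraries PGD, TALDO1 and TKT varied together in log2 CPM, with Pearson's r of 0.98 between PGD and TALDO1, 0.96 between TALDO1 and TKT and 0.93 between PGD and TKT. These values share libraries and follow the separation of the groups, and are given as a description. Among 7963 features with a mean of at least 50 reads, the profiles most like that of PGD were those of LINC00958 (r = 0.990), RNF213 and PLA2G2A (both r = 0.988). For TALDO1 they were CPLX2 (0.994), SLC30A3 and LINC00958 (both 0.992), and for TKT they were FOXC1 (0.981) and the glycolytic genes PKM (0.976) and GPI (0.973).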

How the data were processed

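The authors prepared libraries with the QuantSeq 3′ kit from 9 HepG2 samples. The submitters' processing notes list cutadapt 1.16, STAR 2.7.5b, featureCounts 1.6.3 and the build hg38, whereas the study's methods name GRCh37. The deposited values are whole-number read counts per gene, and all 12798 features had over 0.5 CPM in at least 3 libraries. There were 1052 features without a gene number, left out of library sizes and tests (1.26% to 1.42% of reads per library).

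Features with low counts were removed with edgeR's filterByExpr, which left 11064. Libraries were scaled by TMM, and edgeR 4.0.16 (R 4.3.3) fitted all 3 groups in a quasi-likelihood model with group as the factor. P-values were adjusted by Benjamini-Hochberg. The test was tested on simulated data. Chi-square checks of the counts found no duplicated library. Alternatives were limma-voom (limma 3.58.1), DESeq2 1.42.0, other scalings and filters, a replicate block and leaving out each library. Profiles were compared by Pearson's r of log2 CPM with a prior count of 2. The members and gene lists were chosen with earlier results of these data known. Among other genes called with both guides, up to 5 per list, by size of change with sgKeap1-2, were to be named, and others are marked in the text. Some genes of the lists are counted but not reported here by name. RefSeq promoter windows were found for all 9 listed genes.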

Additional observations from a re-analysis of the deposited data

How the results depend on the processing

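PGD, TALDO1 and TKT were the 3 genes called higher with each guide in every alternative that kept the adjusted p threshold alone, and the count of called genes stayed at 3, 3 and 0 when any 1 library was left out. With a log2 fold change of at least 1 also required, 1 of the 8 genes (TALDO1) was called with sgKeap1-1 and 2 with sgKeap1-2, and the features called numbered 284 and 595. With a replicate block the features called were 977 with sgKeap1-1, 1956 with sgKeap1-2 and 26 between the guides, beside 465, 1196 and 2 without it, and the other genes of the pathway called with sgKeap1-1 numbered 21 beside 12. The labels give same-numbered libraries of the 3 groups a common prefix, without saying what it stands for. Correlations of same-numbered libraries, taken after each group's mean log2 CPM was subtracted, ranged from -0.01 to 0.52 (mean 0.23). Of these, 7 of 9 were over the minimum of 0.1 set for pairing. Those of differently numbered libraries had a mean of -0.12, which the subtraction ties to the same-number mean, so it is no separate observation. Of the 9 libraries, 7 correlated best with their own number. Since not all 9 same-numbered correlations passed that minimum, the main fit held no replicate term. Spread shared by same-numbered libraries thus stayed in the standard errors and intervals of the main fit. The block changed the call of none of the 8 genes.

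Between the guides, 0 features were called with at least 10 counts in every library, with limma-voom or with only the 2 groups compared, and 19 with DESeq2. Leaving out each library in turn gave 278 to 422 features called with sgKeap1-1, 764 to 1255 with sgKeap1-2 and 0 to 2 between the guides, and 8 to 12 and 16 to 19 other genes of the pathway. The counts of features fell by more than 1.5 times without sgCtrl replicate 1 (278 and 764) and without sgCtrl replicate 3 (287 and 778). For sgKeap1-1 the same held without its replicate 1 (285). The other genes of the pathway called with sgKeap1-1 numbered 8 without sgCtrl replicate 3, beside 12 in the main fit. Of 360 fits of the 8 genes, 343 kept direction and call, and 17 changed sign, all in values not called. Without scaling beyond library size, RPIA with sgKeap1-1 was 0.0047. Leaving out a library moved log2 fold changes across 0 for NNT (-0.166 to 0.0138), RPIA (-0.0723 to 0.0641) and NADK (-0.102 to 0.0343) with sgKeap1-1, for NADK (-0.11 to 0.25) and IDH1 (-0.278 to 0.0691) with sgKeap1-2, and between the guides for IDH1 (-0.13 to 0.22), NADK (-0.10 to 0.27) and PGLS (-0.0360 to 0.282). The causes were not tested. Keeping features without a gene number and leaving out libraries for the other genes of the pathway were chosen after seeing the data. At these depths PGLS, NNT and NADK had the widest intervals of the 8 genes.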
